A study of Mus musculus with 12 samples.

Results

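The renin-angiotensin system of the heart is described here through 8 genes: Agt, Ren1, Atp6ap2, Ace, Agtr1a, Agtr2, Mas1 and Agtrap. The genes were chosen by name, as all non-control probes whose gene name or older synonym on the array was one of these 8. This gave 16 probes for 8 of the 27666 gene names on the array. A probe was analysed when its signal was well above the local background, as flagged by the scanning software, on all 3 arrays of at least 1 group. Of the 16 probes 14 passed, which left 7 of the 8 genes to be tested among 18251. Agtr2 was the gene that did not pass.

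One-colour arrays measured the total RNA of 12 whole hearts, 3 in each of 4 groups, from male mice on the C57BL/6 background. All mice carried floxed alleles of the glucocorticoid receptor gene Nr3c1 and of the mineralocorticoid receptor gene Nr3c2. The cardioGRMRdKO mice, written as knockout mice in what follows, also carried the αMHC-Cre transgene, and the dflox mice were Cre-negative littermates of theirs. Both genotypes were sampled at an age of 1 month and of 2 months. The αMHC promoter is active in cardiomyocytes. Other cells of the heart, such as fibroblasts, vessel cells and mast cells, are therefore meant to keep both receptor genes, which was not measured here. Every knockout heart had Cre and no dflox heart had it, so Cre and the loss of the receptors cannot be told apart.

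Angiotensinogen, the product of Agt, is the only known precursor of the angiotensin peptides. Renin cuts it to angiotensin I, and angiotensin-converting enzyme turns that into angiotensin II, which constricts vessels, drives aldosterone release and promotes growth of heart muscle and of scar tissue. Most circulating angiotensinogen comes from the liver, while local synthesis has been described in many tissues, heart and fat among them. Angiotensin II acts mainly through the type 1 receptor, and a second arm, which signals through the Mas receptor, opposes many of its effects.

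Levels are given as the log2 of the processed signal minus the array's 75th percentile, so that 0 is that percentile, and differences are knockout minus dflox on the same scale. Levels of different probes are not compared with each other. Per array 63.7% to 71.9% of spots were well above background. All 8 cardiomyocyte markers were measured. Nr3c1 fell in the knockout hearts at 2 months, by 1.10 on the log2 scale (SE 0.14, adjusted p = 0.00565), and its difference at 1 month was -0.73 (adjusted p = 0.119) with 1 heart of each genotype missing because of an outlier spot. That is its brightest probe, and its other 3 probes gave -0.26 to -0.84 at 2 months without passing over single probes. Nr3c2 had differences of 0.06 and -0.46 (adjusted p = 1 and 0.651). The deleted exons are not given in the sources used here, so it is not known whether either probe lies in a deleted part. At 1 month all dflox arrays lay at outer places of their slides and all knockout arrays at inner places, so the effect of place and that of genotype cannot be told apart within that age. Signal of lung and airway epithelium markers (7 of 8 passed, 6 with a value on all 12 arrays) varied widely between hearts. Its summed level was 51.4 to 115 in dflox and 1.203 to 4.859 in knockout hearts at 1 month, and 1.19 to 147 in dflox and 1.09 to 138 in knockout hearts at 2 months. The marker Sftpb was above background on 0 of the 12 arrays.

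Agt was strongly lower in the knockout hearts at both ages. It was the only one of the 7 tested genes that passed the threshold, an adjusted p under 0.05, in any of the comparisons, and it passed in the genotype comparison at either age and in their average. Among all tested genes, 0.981% passed at 1 month, 2.31% at 2 months and 4.5% in the average. Agt was measured by a single probe at chr8:123143932-123143991 on the minus strand of build mm7, which was well above background on all 12 arrays. The first 30 of its 60 bases, written 5′ to 3′, are shown because the whole Agt result rests on this probe, in
Agt probe: cgtctccttggagactgcgctgaccgagaa
The promoter of the gene is shown as well, since the removed receptors are transcription factors that bind DNA. RefSeq's promoter table (build GRCm38.p6) holds the 250 bases before the start of Agt, chr8:124569707-124569956 on the minus strand, with the TATAAA motif in capitals, as
Agt promoter: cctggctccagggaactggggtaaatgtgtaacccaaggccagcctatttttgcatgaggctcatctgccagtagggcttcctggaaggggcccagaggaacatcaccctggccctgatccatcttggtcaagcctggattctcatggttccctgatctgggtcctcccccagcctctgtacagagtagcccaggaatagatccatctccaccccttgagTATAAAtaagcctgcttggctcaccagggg
The motif starts 30 bases before the transcription start. TATAAA, searched on both strands over 250 bases before to 50 after the start, was found in 13.6% of 32851 promoters. The hexamer TGTTCT, an arm of the element that both receptors bind, was found in 19% of these promoters and not in that of Agt. The joined element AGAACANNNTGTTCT was found in 0.00913% of them, and in none of those of the 7 members with an entry. Of these 7 genes, Atp6ap2 had a promoter with the hexamer, found once, and Agtr1a had no entry. The search took exact matches within this stretch only, so sites further away or with another sequence would be missed. Binding of either receptor to these genes was not tested.

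In the dflox hearts the log2 level of Agt was 0.44, 0.94 and 0.33 at 1 month and 0.45, 0.46 and 0.63 at 2 months. In the knockout hearts it was -2.22, -1.47 and -1.67 at 1 month and -1.994, -1.999 and -1.836 at 2 months. Every knockout heart lay below every dflox heart, of either age, and the lowest dflox heart and the highest knockout heart were both 1-month hearts. The group means were 0.57 ± 0.33 (SD, n = 3) and 0.51 ± 0.10 in dflox and -1.78 ± 0.39 and -1.94 ± 0.09 in knockout hearts at 1 and 2 months. Ordered by level the groups ran from dflox at 1 month over dflox at 2 months and knockout at 1 month to knockout at 2 months, and within each genotype the neighbouring ages did not differ beyond their spread.

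Agt fell by 2.36 on the log2 scale at 1 month (SE 0.20, adjusted p = 0.00107), which is 5.12-fold. At 2 months it fell by 2.45 (SE 0.20, 5.48-fold, adjusted p = 0.000363). In the average of the ages it fell by 2.40 (SE 0.14, adjusted p = 1.8e-05). Ranked from the most lowered, Agt stood at place 80 of all tested genes at 1 month and at place 17 at 2 months. The genotype differences at the 2 ages differed by -0.10, with a 95% interval from -0.74 to 0.54 (adjusted p = 0.963). From 1 to 2 months Agt changed by -0.06 in dflox hearts (95% interval -0.52 to 0.39, adjusted p = 0.906) and by -0.16 in knockout hearts (95% interval -0.61 to 0.30, adjusted p = 0.855). In RNA of whole hearts, fewer cells that express a gene and less of its RNA per cell cannot be told apart.

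The Agt difference was of like size within each slide that held both genotypes of an age: -1.91 and -2.30 at 1 month, and -2.28 and -2.54 at 2 months. Each of these values rested on 1 knockout array and 1 or 2 dflox arrays. At 1 month the first knockout heart entered neither value, and the arrays compared also differed in place. With place on the slide as a covariate the difference at 1 month was -2.23 and missed the threshold (adjusted p = 0.0555). At 2 months, where both genotypes lay at both places, it was -2.38 between the arrays at outer and -2.44 between those at inner places. The outer places held 2 dflox arrays and 1 knockout array, and the inner places 1 dflox array and 2 knockout arrays. The lung and airway signal did not overlap between the genotypes at 1 month and overlapped at 2 months. The 3 hearts of 2 months with a low summed level of these markers were 2 dflox hearts, with Agt at 0.45 and 0.46, and 1 knockout heart, with Agt at -1.999. With the mean log2 level of the markers as a covariate, added after the data were seen, the Agt difference was -2.27 at 1 month (adjusted p = 0.0168) and -2.47 at 2 months (adjusted p = 0.000916). Of the 8 hepatocyte genes, Apoa2 and Ahsg were above background on 12 of the 12 arrays, Hpx on 10 and Fgb on 7. Alb was above background on 2, Apoa1 and Ttr on 0, and Serpina1a had no probe. The 4 of 8 hepatocyte markers that passed had summed levels of 3.88 to 4.30 in dflox and 1.97 to 5.17 in knockout hearts at 1 month, and of 3.19 to 3.82 and 2.59 to 4.48 at 2 months, and these ranges overlapped. Fat markers, of which 7 of 8 passed and 6 were summed, ranged from 70.7 to 89.4 in dflox and 11.9 to 101 in knockout hearts at 1 month, and from 20.6 to 126 and 18.8 to 123 at 2 months. These ranges overlapped at both ages too, and the part of liver or fat RNA in the Agt values was not tested. The summed level of 6 of the 8 cardiomyocyte markers was 1641 to 1657 in dflox and 1301 to 1572 in knockout hearts at 1 month, without overlap, and 1567 to 1717 and 1154 to 1695 at 2 months. Of these 8 markers 7 had a difference below 0 at either age, and in the average 1 fell, Ryr2, the calcium release channel (-0.38, adjusted p = 0.0126). Atrial markers, of which 7 of 8 were summed, ranged from 699 to 778 in dflox and from 408 to 716 in knockout hearts at 1 month and from 573 to 678 and 500 to 702 at 2 months, and 8 of 8 had an averaged difference below 0 with 0 passing. The lowest of these atrial levels, 408, was that of the first knockout heart of 1 month. This heart also had the lowest fat level, 11.9, the lowest cardiomyocyte level of its group, 1301, and the lowest Agt level, -2.22. Without this heart Agt differed by -2.14 at that age. Fibroblast markers, 6 of 7 summed, were 137 to 151 against 118 to 134 at 1 month, and 6 of 6 endothelial markers were 50.9 to 56.1 against 48.7 to 49.7, both without overlap, while at 2 months both overlapped. The 1 of 3 erythroid markers that was summed ranged from 13.2 to 20.5 in dflox and from 7.76 to 22.3 in knockout hearts at 1 month and from 7.93 to 25.3 and 19.5 to 30.7 at 2 months. The part of cell makeup in the Agt values was not tested.

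**Figure D1:**
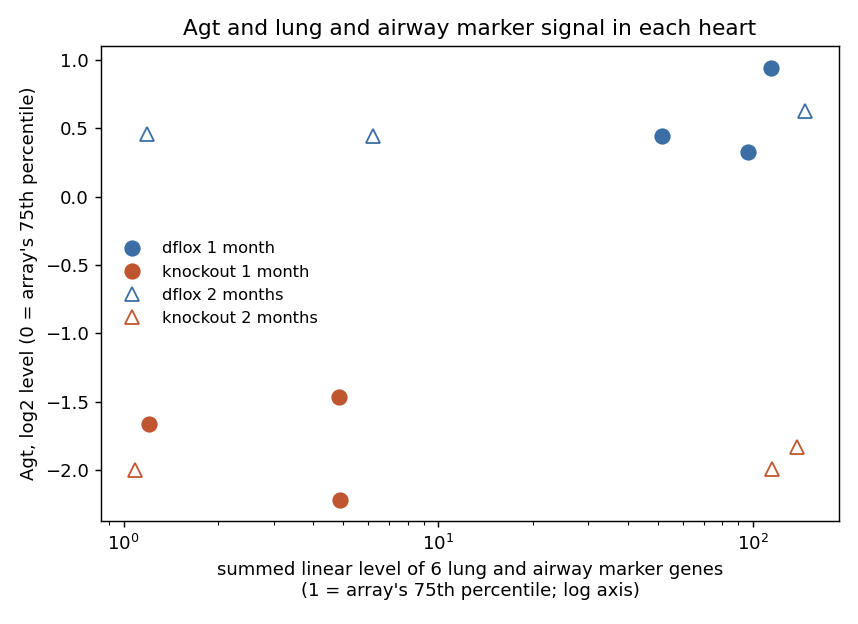
Log2 level of Agt (vertical axis, 0 is the array's 75th percentile) against the summed linear level of 6 lung and airway marker genes (horizontal log axis) in each of the 12 hearts, with colour for genotype, filled circles for 1 month and open triangles for 2 months. The 6 dflox hearts sit between 0.33 and 0.94 and the 6 knockout hearts between -2.22 and -1.47, at low and at high marker signal alike for the hearts of 2 months.

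Renin and its receptor came next in the cascade. Ren1, which encodes renin, was read by 2 probes. The brighter one, at chr1:133261002-133261061 on the plus strand of mm7, was well above background on all 12 arrays. Ren2 is a near-identical gene that some mouse strains carry beside Ren1 and C57BL/6 mice lack. The array has a probe under its name close by, at chr1:133261087-133261148, which was well above background on 11 of the 12 arrays. Its signal is therefore not read here as that of a separate Ren2 gene, and which transcript it measures was not tested. Ren2 was singled out for this likeness and not by the rule for named genes. The first 30 bases of both probes are shown because they sit side by side in
Ren1 probe: ttctatacagagtttgatcggcataacaat
Ren2 probe: caagccaagctggcactcttgggggccatt
On the brighter Ren1 probe the dflox hearts had levels of -3.39, -3.54 and -3.73 at 1 month and -3.66, -3.32 and -3.49 at 2 months. The knockout hearts had -3.47, -4.32 and -4.17 at 1 month and -4.13, -4.10 and -4.08 at 2 months. At 2 months every knockout heart lay below every dflox heart, and at 1 month the first knockout heart lay among the dflox hearts. The difference was -0.43 at 1 month (95% interval -0.88 to 0.01, adjusted p = 0.557) and -0.62 at 2 months (95% interval -1.06 to -0.17, adjusted p = 0.178). Averaged over both ages it was -0.53 (SE 0.14, adjusted p = 0.0725), which missed the threshold. Without the first knockout heart of 1 month the averaged value was -0.66 (adjusted p = 0.0051) and the value at 2 months stayed at -0.62 with an adjusted p of 0.0436, both past the threshold. 2 other fits of the averaged difference passed as well, that with the slide as a fixed block (-0.53, adjusted p = 0.0409) and that with array weights (-0.66, adjusted p = 0.0136). Of the 23 alternative fits Ren1 thus passed in 0 at 1 month, in 1 at 2 months and in 3 in the average. Over all fits the averaged difference ran from -0.66 to -0.27 and its adjusted p from 0.0051 to 0.457. The dimmer Ren1 probe was above background on 7 of the 12 arrays and had differences of 0.04 and -0.05 (adjusted p = 1 and 0.954 over single probes). The Ren2 probe ranged from -6.15 to -3.30 over the dflox hearts and from -6.04 to -4.52 over the knockout hearts, with differences of -0.10 and -0.91 (adjusted p = 1 and 0.481).

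Atp6ap2, the prorenin receptor, which is also an accessory protein of the vacuolar proton pump, had levels of 1.17, 1.14 and 1.25 in dflox and 1.22, 1.23 and 1.32 in knockout hearts at 1 month. At 2 months they were 1.11, 0.95 and 1.04 in dflox and 1.18, 1.27 and 1.01 in knockout hearts. The genotypes overlapped at both ages. Differences were 0.07 (95% interval -0.14 to 0.29) and 0.12 (95% interval -0.10 to 0.33) at 1 and 2 months, with adjusted p of 0.996 and 0.557.

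Ace, the converting enzyme that makes angiotensin II and breaks down bradykinin, had 3 probes. The brightest, at chr11:106098125-106098184 on the plus strand of mm7, gave levels of -0.27, -0.17 and -0.08 in dflox and 0.00, -0.06 and -0.02 in knockout hearts at 1 month. At 2 months they were -0.29, -0.04 and 0.12 in dflox and -0.13, 0.03 and 0.37 in knockout hearts. At 1 month every knockout heart lay above every dflox heart, by a narrow margin, and at 2 months the genotypes overlapped. The differences were 0.14 (95% interval -0.18 to 0.47, adjusted p = 0.961) and 0.16 (95% interval -0.16 to 0.48, adjusted p = 0.588). The second Ace probe gave 0.03 and 0.53 (adjusted p = 1 and 0.478 over single probes), the latter with one knockout heart at -1.80 and the others at -3.15 and -2.95. The third probe, which the file pairs with another transcript of the gene further along the chromosome, was above background on 0 of the 12 arrays. The first 30 bases of the brightest and of this last probe show the pair that the scanner did and did not detect, in
Ace brightest probe: atgggggacatggtgtttgagtggaacata
Ace probe not above background: accaaccactctggaattagctgtatgata

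In the main fit, on the brightest probe of each gene, the tested receptors showed no difference that passed the threshold. Agtr1a, the main type 1 receptor of the mouse heart, had levels on its brighter probe of 2.61, 2.39 and 2.31 in dflox and 2.59, 2.30 and 2.37 in knockout hearts at 1 month. At 2 months they were 2.04, 2.44 and 2.41 in dflox and 2.12, 2.33 and 1.74 in knockout hearts. The genotypes overlapped at both ages, and the lowest value belonged to the third knockout heart of 2 months. Differences were -0.02 (95% interval -0.40 to 0.37, adjusted p = 1) and -0.23 (95% interval -0.62 to 0.15, adjusted p = 0.517). The other Agtr1a probe gave 0.03 at both ages (adjusted p = 1 and 0.917 over single probes). Agtr2, the type 2 receptor, known for its high level in the fetus, was not well above background on any of the 12 arrays, and no fold is given for it. Agtr1b, the second type 1 receptor gene of the mouse, was above background on 5 of the 12 arrays and did not pass.

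Mas1, the receptor of a shorter angiotensin peptide, lay close to background. Its brighter probe was above background on 10 of the 12 arrays and on 1 of the 3 dflox arrays of 1 month. Levels were -5.52, -5.14 and -3.95 in dflox and -3.91, -4.21 and -3.81 in knockout hearts at 1 month, and -5.12, -3.86 and -3.79 in dflox and -3.74, -4.00 and -4.24 in knockout hearts at 2 months. The genotypes overlapped at both ages because 1 dflox heart at 1 month and 2 at 2 months reached the knockout levels. Differences were 0.89 (95% interval -0.05 to 1.83, adjusted p = 0.578) and 0.26 (95% interval -0.68 to 1.20, adjusted p = 0.763). The dimmer Mas1 probe was above background on all 6 knockout arrays and on 1 of 3 dflox arrays at either age. It read -5.58, -5.65 and -5.43 in dflox against -4.82, -4.44 and -5.20 in knockout hearts at 1 month, and -5.49, -5.99 and -5.87 against -5.25, -5.29 and -5.12 at 2 months, without overlap at either age. This probe passed the filter only through the knockout groups, where it was high, and most of its dflox values were not well above background, so its separation is no support for a difference. Over single probes its averaged value was 0.65 (adjusted p = 0.0229, with 4.04% of all probes passing) and with quantile normalization 0.78 (adjusted p = 0.0674). With normexp background correction, whose offset shrinks differences of dim probes by construction, it was -0.03 (adjusted p = 0.883). Of the 14 member probes 1, that of Agt, passed over single probes at 1 month, where 0.742% of all probes passed, and at 2 months, where 2.06% did. Both Mas1 probes are shown because the groups overlapped on one and not on the other, as
Mas1 brighter probe: tcgaagctgtacattgtcatcatggtcacc
Mas1 dimmer probe: agcttgtgcttggaatgcaatttaagcaca
They lie at chr17:11920235-11920294 and chr17:11920594-11920653 on the plus strand of mm7.

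Agtrap, which binds the type 1 receptor and promotes its internalisation, was read by 4 probes, all well above background on all 12 arrays. On the brightest the dflox hearts had levels of 2.81, 2.89 and 2.80 at 1 month and 2.79, 2.99 and 3.09 at 2 months, and the knockout hearts 2.86, 3.01 and 2.63 at 1 month and 3.00, 2.92 and 2.68 at 2 months. The genotypes overlapped. Differences were 0.00 (95% interval -0.29 to 0.29, adjusted p = 1) and -0.09 (95% interval -0.39 to 0.20, adjusted p = 0.723). The other Agtrap probes gave between 0.07 and 0.18 at 1 month and between -0.14 and 0.02 at 2 months, and none passed the threshold.

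**Figure D2:**
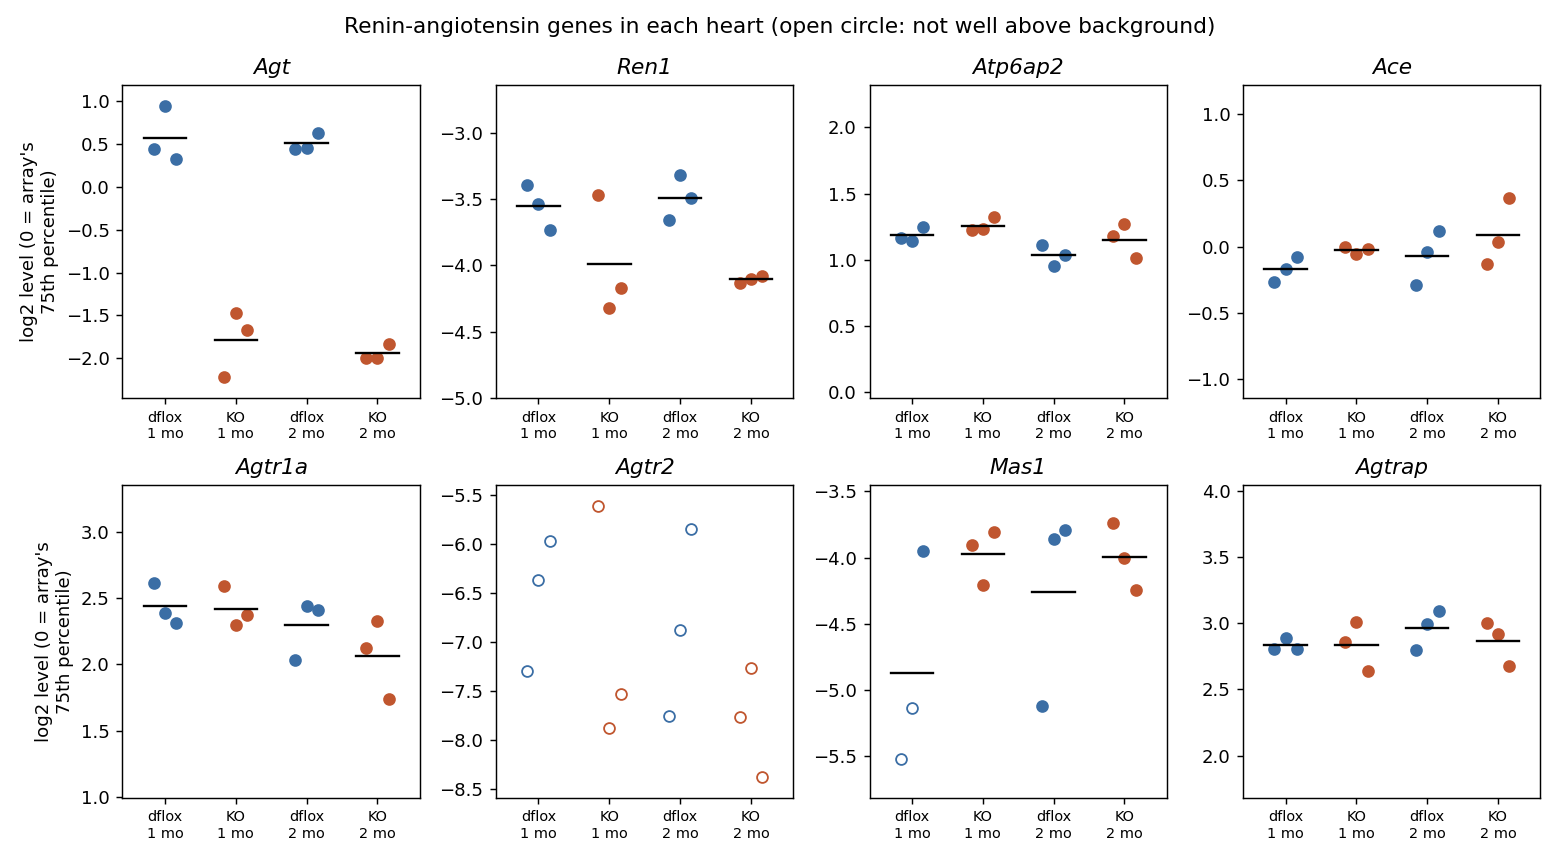
Log2 level (0 is the array's 75th percentile) of the 8 genes in each heart by group (KO, knockout; mo, months), with a panel and a vertical axis per gene; circles are hearts, open where the probe was not well above background, and bars are group means (none for Agtr2). The group means of Agt lie more than 2 log2 units apart at both ages, while the genotypes overlap at both ages for Atp6ap2, Agtr1a, Mas1 and Agtrap.

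Over the 7 tested genes, 1 passed and was lower at each age, and 0 were higher. The median difference of the 7 was 0.001 at 1 month and -0.094 at 2 months, beside -0.001 and -0.095 over all genes. Genotypes that did not overlap were found for 2 of 7 genes at 1 month, Agt and Ace, and for 2 of 7 at 2 months, Agt and Ren1. Over all genes the same held for 18.6% at 1 month and 17.6% at 2 months. Apart from Agt, these shares are not a result about the genes. In the comparison of the genotype effects between ages 0 of the 7 passed, and so did 0 of all 18251 genes by limma, where 644 had an unadjusted p under 0.05. From 1 to 2 months 0 of 7 passed in either genotype, beside 0.553% of all genes in dflox and 0.378% in knockout hearts.

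**Figure D3:**
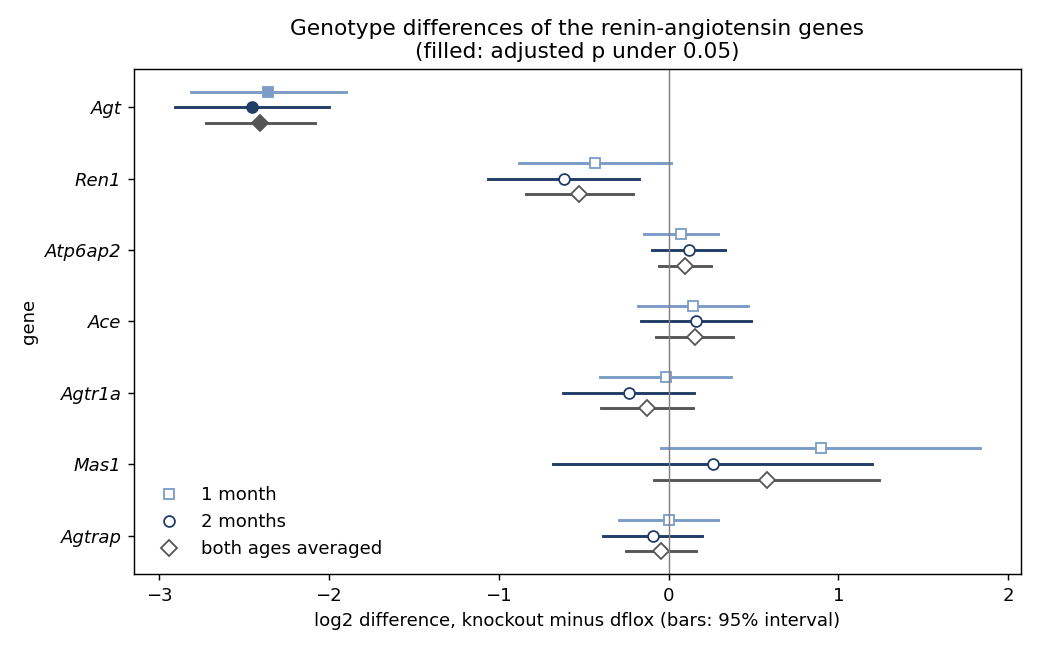
Log2 difference, knockout minus dflox, of the 7 tested genes at 1 month (squares), at 2 months (circles) and averaged over both ages (diamonds), with bars for the 95% interval and filled symbols for an adjusted p under 0.05. Only the symbols of Agt are filled, at -2.36, -2.45 and -2.40, and the next lowest are those of Ren1, at -0.43, -0.62 and -0.53.

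Genes around the core system were described through a list of 31 genes for angiotensin processing and further receptors, of which 29 were on the array and 27 were tested. At 1 month 0 of the 27 passed, where 0.981% of all genes did. At 2 months and in the average 1 passed, upwards, and 0 downwards, where 2.31% and 4.5% of all genes passed, so these counts are not a result about the list. The gene that passed was Enpep, which encodes aminopeptidase A, the enzyme that turns angiotensin II into angiotensin III. Its probe, at chr3:129109712-129109771 on the minus strand of mm7, starts with the 30 bases shown as the counterpart of the Agt probe in
Enpep probe: gctaagtgttcttcatgggaaagtctttac
Its levels were -0.01, 0.02 and 0.33 in dflox and 0.62, 0.81 and 0.71 in knockout hearts at 1 month, and 0.22, 0.06 and -0.02 in dflox and 0.76, 0.97 and 0.94 in knockout hearts at 2 months. Every knockout heart lay above every dflox heart. Enpep rose by 0.80 at 2 months (SE 0.12, 1.75-fold, adjusted p = 0.00793) and by 0.70 in the average (SE 0.09, 1.63-fold, adjusted p = 0.00119). At 1 month its difference was 0.60 (SE 0.12, adjusted p = 0.0567), and the difference between the ages, 0.21, did not pass (its adjusted p ran from 0.655 to 1 over the alternatives). Within slides the Enpep difference was 0.82 and 0.53 at 1 month and 0.72 and 0.95 at 2 months, each from 1 knockout array and 1 or 2 dflox arrays. Pericytes are among the cells known to express Enpep. The summed level of 8 of 8 smooth muscle and pericyte markers was 147 to 194 in dflox and 190 to 204 in knockout hearts at 1 month, and 130 to 146 and 151 to 182 at 2 months. Of these 8 markers 6 had a difference below 0 at 2 months and 1, Acta2, passed, with 0.91 (adjusted p = 0.0225), and the part of such cells in the Enpep result was not tested.

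Other enzymes and receptors of that list gave differences that did not pass. Cma1, the mast cell chymase that can form angiotensin II without Ace, differed by -0.24 and -0.53 (adjusted p = 0.87 and 0.192). At 2 months its levels were 0.11, 0.13 and 0.44 in dflox and -0.04, -0.26 and -0.61 in knockout hearts, which did not overlap. All 5 of the 6 mast cell markers that passed, Cma1 among them, had differences below 0 at both ages, and their summed level was 2.00 to 2.96 in dflox and 1.55 to 2.07 in knockout hearts at 2 months. The part of mast cell number in the Cma1 values was not tested. Mme, or neprilysin, differed by 0.15 and -0.04, Ctsd, the protease cathepsin D, by 0.04 and 0.37 with 1 dflox heart of 2 months missing, and Lnpep, the receptor of angiotensin IV, by -0.18 and -0.15 at 1 and 2 months, and none of the 3 passed. The median of the 27 was -0.04 at 1 month and -0.15 at 2 months.

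Downstream of the receptors, 33 of 34 listed genes of signal transduction were tested. At 1 month and at 2 months 0 of the 33 passed. In the average 1 rose and 1 fell, where 4.5% of all genes passed. Ncf1, a cytosolic subunit of the NADPH oxidase that angiotensin II activates, rose by 0.48 (SE 0.10, adjusted p = 0.0281). Its levels were -4.02, -3.77 and -3.49 in dflox and -3.23, -3.40 and -3.36 in knockout hearts at 1 month, and -3.77, -3.91 and -3.85 against -3.33, -3.50 and -3.09 at 2 months, without overlap at either age. The summed level of 5 of 6 macrophage markers was 10.1 to 13.2 in dflox and 12.6 to 13.9 in knockout hearts at 1 month and 9.88 to 11.1 and 11.7 to 13.4 at 2 months. Macrophages express Ncf1, and their part in its rise was not tested. Gna12, the alpha subunit of a G protein, fell by 0.34 (SE 0.08, adjusted p = 0.0372). Its levels were 4.002, 4.25 and 4.09 in dflox and 3.69, 3.98 and 3.90 in knockout hearts at 1 month, and 4.63, 4.58 and 4.50 against 4.04, 4.17 and 4.24 at 2 months. Both calls were close to the threshold: leaving out 1 heart at a time, the adjusted p ran from 0.0143 to 0.0716 for Ncf1 and from 0.0376 to 0.0981 for Gna12. With normexp background correction, whose offset shrinks differences of dim probes by construction, the difference of Ncf1 was 0.13. Ncf1 passed in 11 and Gna12 in 6 of the 23 alternative fits. The other probes had the same direction but not always the call: over single probes the second Ncf1 probe gave 0.45 (adjusted p = 0.18), and of the other Gna12 probes 1 passed (-0.43, adjusted p = 0.0182) and 1 did not (-0.22, adjusted p = 0.422). Rgs2, which dampens the G proteins of the type 1 receptor, differed by -0.51 and 0.02 (adjusted p = 0.649 and 0.969). The median of the 33 genes was 0.06 at 1 month and -0.01 at 2 months.

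**Figure D4:**
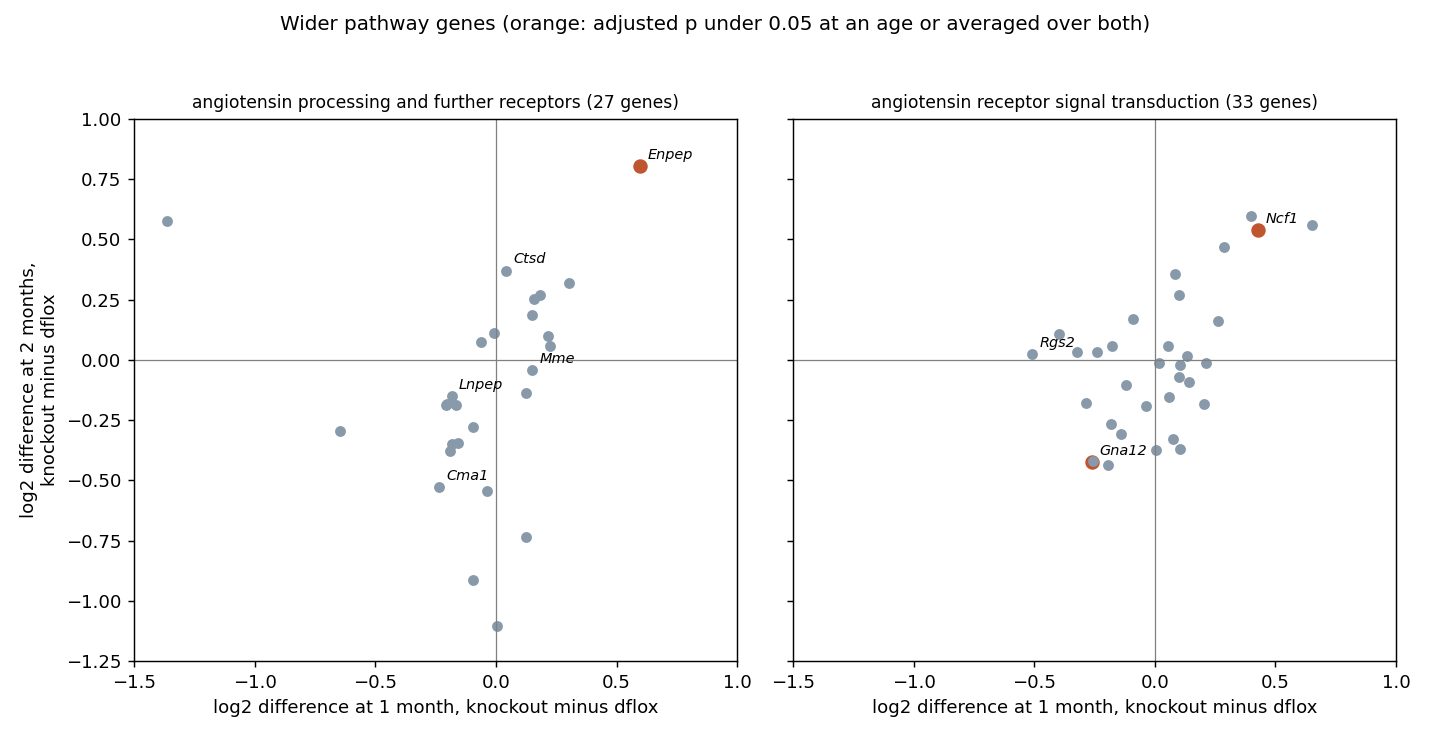
Log2 difference, knockout minus dflox, at 2 months (vertical axis) against 1 month (horizontal axis) for the 27 genes of angiotensin processing and further receptors (left) and the 33 of receptor signal transduction (right); each circle is a gene, orange where the adjusted p was under 0.05 at an age or in the average. Enpep lies highest at 2 months, at 0.60 and 0.80, and Ncf1 and Gna12 are the other orange circles.

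Genes whose levels followed Agt over the 12 arrays were ranked among the 17774 genes with all values, as a description, since the arrays share their groups and Agt differs between them. The 5 highest Pearson correlations were those of Wnk2 (r = 0.986), Tg (0.985), Rab3b (0.977), Spock2 (0.975) and Csdc2 (0.975). They encode a kinase of the WNK family, thyroglobulin, a small GTPase of regulated secretion, an extracellular proteoglycan and an RNA-binding cold shock protein. The 5 lowest were those of Polr1e (-0.975), Dhrs13 (-0.972), Itga9 (-0.969), Rgs6 (-0.966) and Morn4 (-0.963). Polr1e encodes a subunit of RNA polymerase I, Itga9 an integrin chain and Rgs6 a regulator that dampens G protein signals. The probe that stood for Itga9 is described on the array as an unclassifiable cDNA clone. Once each group's mean was subtracted from the levels, the correlation was 0.738 for Wnk2, 0.748 for Tg, 0.814 for Spock2, 0.498 for Rab3b and 0.547 for Csdc2. It was -0.583 for Itga9, -0.441 for Dhrs13, -0.372 for Polr1e, -0.05 for Rgs6 and 0.16 for Morn4. The genes were picked by r over the same arrays, which favours strong values here too, so these are a description only. Among the genes of the system itself, r with Agt was 0.7 for Ren1 and -0.933 for Enpep, and -0.585 and -0.039 after the group means were removed.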

How the data were processed

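The authors labelled 500 ng of total RNA per heart with Cy3, per the labels' protocols, and took spot intensities with the software Agilent Feature Extraction, version 9.5 in the submitters' processing notes and 9.5.3.1 in the headers. The deposited value is its processed signal, a linear intensity with background and spatial trend removed within the array and no scaling between arrays. The deposited matrix holds the same intensity in 100% of spots. Coordinates are those of the files, on mm7.

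Control and outlier spots were left out. The intensity was put on the log2 scale, each array's 75th percentile was subtracted, spots of a probe were averaged, and 26966 of 41174 probes passed the filter. The brightest probe stood for a gene. Files' gene names were updated through RefSeq accessions and synonyms. A model of the group means over the 12 arrays was fitted in R 4.3.3 with the packages limma, version 3.58.1, and data.table, version 1.17.8, with moderated variances, two-sided tests and Benjamini-Hochberg adjustment over all genes. Intervals are 95% and rest on the spread between hearts within groups, pooled over the 4 groups of 3 hearts and moderated over genes. They cover only this spread, and the number of hearts limits the precision. Levels are given with SD and differences with SE. The fit was tested on simulated data with independent noise, which held no effect of slide, place or tissue signal.

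The members, the wider lists and the rule for named genes (all members, preselected genes of the lists, list genes that passed, and the 5 genes most and least correlated with Agt) were chosen with earlier results of these data known. One preselected gene is not reported here. Marker lists of 11 cell types and tissues were measured. Alternatives were other normalization, background correction, filters, blocks, covariates, probe rules, array weights and leaving out each heart.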

Additional observations from a re-analysis of the deposited data

How the results depend on the processing

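The alternatives comprised 23 fits, 12 of which left out 1 heart each. Mas1 had 22, because neither of its probes was above background on all arrays. All alternatives but the lung and airway covariate were planned. Agt stayed lower in the knockout hearts in all of them, from -2.51 to -2.12 at 1 month, -2.53 to -2.29 at 2 months and -2.48 to -2.20 in the average. The call was lost once, at 1 month with place as a covariate (-2.23, adjusted p = 0.0555, and 0 members called). The difference of the Agt effects between ages was not called in any fit, and its sign changed in 2. Members called at 2 months were 1 to 2 without 1 heart. In the average they were 2 with the slide as a fixed block, with array weights or with the mean of a gene's probes, where Mas1 passed (0.61, adjusted p = 0.0436), and 1 to 2 without 1 heart. Of the 2 calls of single probes in the average, 1 was left with quantile normalization and 1 with normexp. A sign change of a difference not called on either side was not counted as a change of the result.

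The wider lists together had 0 calls at 1 month, and 1 with only probes above background on all arrays, 2 with array weights and 0 to 1 without 1 heart. At 2 months they had 1, and 1 to 2 without 1 heart. Their 3 calls in the average became 1 with normexp, without a filter or with place, 5 with the stricter filter or the slide as a random block, 9 with array weights and 1 to 4 without 1 heart. From 1 to 2 months in the knockout, array weights gave 1 call in place of 0. Enpep passed in all 23 fits at 2 months and in the average, and in 3 at 1 month.

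Over all genes, the 179 calls at 1 month became 108 with normexp, 93 without a filter, 9 with place, 46 with the lung and airway covariate, 802 with array weights and 83 to 232 without 1 heart. The 422 at 2 months became 248 with normexp, 243 without a filter and 240 to 389 without 1 heart. The 821 in the average became 488 with normexp, 518 without a filter, 257 with place, 1433 with array weights and 508 to 803 without 1 heart. The difference between ages had 0 calls, and 1 with place. For age in dflox, 101 calls became 55 with normexp, 17 without a filter, 175 with the stricter filter, 10 with the slide as a fixed block, 28 with place, 265 with array weights, 6 with the lung and airway covariate and 3 to 147 without 1 heart. For age in the knockout, 69 calls became 34 with normexp, 13 without a filter, 16 with place, 210 with array weights, 25 with the lung and airway covariate and 4 to 62 without 1 heart. The causes were not tested.

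Replicate numbers were not treated as pairs in the main fit. Deviations of same-numbered hearts correlated at -0.146, -0.024 and 0.036 at 1 month and -0.028, 0.551 and 0.03 at 2 months. Only the value for the hearts numbered 2 at 2 months was high. These hearts lay on the same slide and had the lowest fat and lung and airway levels of their age. The fat levels were 20.6 in dflox and 18.8 in knockout, and the lung and airway levels 1.19 and 1.09. The cause of the high value was not tested. With the replicate block the Agt difference was -2.36 at 1 month (adjusted p = 0.004) and -2.45 at 2 months (adjusted p = 0.00127), the calls for age in the knockout were 31 in place of 69, and no call of a member changed. Genes near background, Mas1 and the dimmer Ren1 probe among them, are limited by signal. Normexp took the Mas1 difference at 1 month from 0.89 to 0.10. It added an offset of 50 to every intensity, which by construction shrinks differences of dim probes, those of Ncf1 among them. The small values it gave for such probes therefore cannot decide whether there is a difference.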
